A study of Mus musculus with 9 samples.

Results

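Solute carriers are membrane proteins that move sugars, amino acids, peptides, bile acids, lipids, ions, metals, vitamins and nucleosides across the plasma membrane or the membranes of organelles. Members were chosen from 2 deposited tables by their symbol and level: Slc followed by a digit, and a mean normalized count of at least 100 over the 6 libraries of either table. Left out by name were 9 sugar, serotonin, chloride, vesicular monoamine and zinc carriers (Slc2a1, Slc2a2, Slc2a5, Slc5a1, Slc6a4, Slc12a2, Slc18a1, Slc18a2 and Slc30a8). With the level limit, this left 223 of 380 Slc symbols, among 35013 rows in each table. The tissue was the epithelium of the small intestine of NFKO mice (Neurog3Cre-FoxO1 f/f; Rosa26tdtomato), whose ages ran between 4 and 6 weeks. In them, Cre driven by Neurog3 removes floxed FoxO1 and switches on a Rosa26 tdTomato reporter. Cells were stained for Epcam and CD24 and sorted into CD24negTomato+, CD24+Tomato+ and Tomatoneg populations, with 3 libraries of each (9 in all). All 3 populations came from mice of this genotype, so Tomatoneg cells are epithelial cells without the reporter, not cells of mice that lack the deletion. Each table pairs a single Tomato+ population with the Tomatoneg libraries, which are thus present in both. Values are gene counts estimated by the authors with kallisto and normalized by them with DESeq2 separately in each table, called normalized counts here, and each Tomato+ population was compared with Tomatoneg cells only within its own table.

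In the gut, absorptive enterocytes take up nutrients in steps. Apical carriers of the brush border, many of them driven by sodium or proton gradients, bring the solute in, and basolateral carriers or ATP-driven pumps pass it on to the blood. Some carriers work only as pairs: the amino acid exchangers of the Slc7 family need a heavy chain of the Slc3 family, and the bile acid exporter is made of Slc51a and Slc51b. Mitochondria, the endoplasmic reticulum (ER), the Golgi and lysosomes have carriers of their own, such as the Slc25 family of the inner mitochondrial membrane and the Slc35 family, which brings nucleotide sugars to the Golgi for glycosylation. Neurog3 marks progenitors of enteroendocrine cells, which secrete hormones and transmitters. The paper also counts subsets of goblet and Paneth cells among the descendants of these progenitors.

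Membership came from the CD24negTomato+ values for 208 genes, from the CD24+Tomato+ values for 218, and from both for 203. Mean levels of the members in the CD24+Tomato+ table ran from 106 to 30148 normalized counts with a median of 856, and Slc25a5, the main ADP/ATP carrier of the inner mitochondrial membrane, was the highest. Just inside the limit of 100, by the larger of the means in the 2 tables, lay Slc26a11 (103), Slc6a14 (105) and Slc26a8 (106), then Slc36a4, Slc2a4rg-ps, Slc25a53 and Slc25a14 (107 to 109). Just outside it lay Slc39a2 (87.8) and Slc35e4 (86.1). In the CD24+Tomato+ table, 29 of its 218 members were under 100 in 1 of the groups and passed through the other, and 8 of the 24 higher and 4 of the 41 lower calls given below were such genes. For CD24negTomato+, 9 of 208 were under 100 in 1 group. Of the 3 higher calls there, 2 were at 100 or more in both groups, and the other, Slc8a1, was a member only through the CD24+Tomato+ values. By textbook substrate, 218 members fell into 13 transporter classes, the largest being mitochondrial carriers (36), amino acids and peptides (34), metals and haem (28), inorganic ions and pH (25) and nucleotide sugars and other ER or Golgi substrates (21). The other 5 carry the symbol without being carriers, among them the scaffold proteins Slc9a3r1 and Slc9a3r2.

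The depth in reads is unknown, since the values are scaled. Tomatoneg replicate 1 stood apart: it had 13025 genes above 0, against 15644 and 16008 in the other Tomatoneg libraries, and across genes its Pearson's r with them was 0.818 and 0.850 in the CD24negTomato+ table, against 0.924 between the others. Counts of calls are therefore also given without it. The floxed gene Foxo1 itself, counted over its whole transcript, stood at 467, 274 and 371 in replicates 1, 2 and 3 of CD24negTomato+ and at 695, 518 and 424 in Tomatoneg (log2 fold change -0.56, limma adjusted P = 0.427) with overlapping groups, and 319, 193 and 201 in CD24+Tomato+ against 748, 529 and 444 in Tomatoneg (-1.27, adjusted P = 0.0579, with the replicate block 0.0219). As markers of the sorted cells, 8 of 8 goblet genes were higher in each Tomato+ population. Of 10 enteroendocrine genes, 7 were higher in CD24negTomato+ (9 with the block) and 10 in CD24+Tomato+. All 8 Paneth and 7 of 8 tuft genes were higher in CD24+Tomato+ cells, and in CD24negTomato+ cells none was higher, while 0 Paneth and 2 tuft genes were lower, and 5 and 5 with the block. Of 7 stem markers 1 was lower in CD24negTomato+ by limma, and 3 with the block, and in CD24+Tomato+ 0 were called, and 2 were higher with it. Of 12 enterocyte markers, none was called in CD24negTomato+ cells without the block, and 1 was higher with it. Their summed level there was 445299 to 991859 normalized counts against 354966 to 1203794 in Tomatoneg. In CD24+Tomato+ cells 8 were called lower and 12 with the replicate block, with sums of 79575 to 201750 against 362963 to 1294103. Lymphocyte markers (8 genes) were lower in both, with 2 and 7 calls (5 and 7 with the block), and acinar markers summed to 179 to 4950 in the Tomato+ libraries against 231 to 357 in Tomatoneg, with 0 calls in each comparison by limma without the block and 2 higher with it in CD24+Tomato+. No marker list was at 0 in a group. In bulk libraries of sorted cells, fewer cells of a type and less RNA per cell cannot be told apart.

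The 2 Tomato+ populations differed from Tomatoneg cells in unlike numbers of members. In CD24negTomato+ cells 3 of 223 members rose and 0 fell (limma on log2(normalized count + 1), adjusted P under 0.05), where 0.999% of all 13420 genes tested were called higher and 0.32% lower. Among the genes tested with a mean of at least 100, 1.18% were called higher and 0.395% lower. Before adjustment, 27 of 223 members had a limma P under 0.05 on the higher side and 4 on the lower side, beside 10.3% and 6.82% of all genes tested. With the replicate number as a block, 15 members rose and 1 fell, against 4.34% and 2.96% of all genes. Without Tomatoneg replicate 1, 11 rose and 0 fell, against 4.59% and 3.29%, and without any single CD24negTomato+ library the count was 0. The members' median log2 fold change was 0.11, beside 0.08 over all genes. As shares of 223, the higher calls were 1.35%, 6.73% (block) and 4.93% (without that library).

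In CD24+Tomato+ cells 24 members rose and 41 fell, which is 10.8% and 18.4% of 223. Of all 13874 genes tested, 8.02% were called higher and 4.89% lower, and of those with a mean of at least 100, 6.87% and 5.89%. With the replicate block 33 members rose and 85 fell, against 10.8% and 9.95% of all genes. Without Tomatoneg replicate 1, 31 rose and 41 fell, against 11.6% and 6.16%. Counts for a class or list, given below, are to be set beside these shares of all genes. The median log2 fold change of the members was -0.37, beside 0.16 over all genes. The counts were lower when a CD24+Tomato+ library was left out: without replicate 1, 2 or 3 of that group, 7, 1 and 3 members were called higher and 33, 5 and 9 lower, while all 24 and all 41 calls kept their sign. The comparisons share the Tomatoneg libraries, so their values are given side by side and were not correlated. Called members beyond the largest changes and the most abundant of each class or list were named because they passed the threshold, after their values were seen. As a share of a library's normalized counts, the members' lowest and highest values were 1.50% and 2.24% for CD24negTomato+, 0.999% and 1.50% for CD24+Tomato+, and 1.70% and 2.35% for Tomatoneg. Replicate 1 was the highest in each group.

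**Figure D1:**
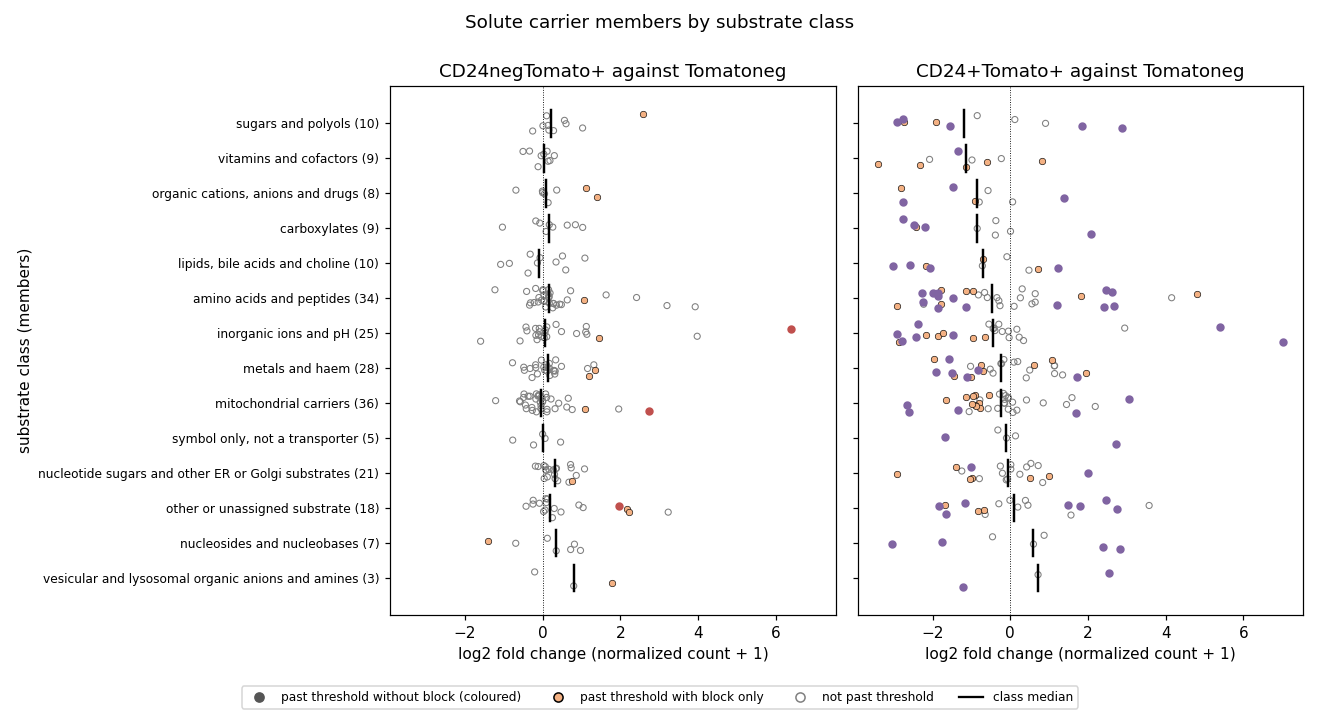
Log2 fold change of each of the 223 members (points, horizontal axis, on log2(normalized count + 1)) by substrate class (vertical axis) for CD24negTomato+ (left) and CD24+Tomato+ (right) against Tomatoneg; black bars are class medians, coloured points passed an adjusted P of 0.05 without the replicate block (3 and 65 members), and orange points passed only with it. Class medians on the left lie between -0.10 and 0.35 but for the 3 vesicular carriers (0.80), and on the right 9 of the 14 are below -0.2.

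The members that fell in CD24+Tomato+ cells included many carriers of nutrient absorption. A list of 43 absorptive brush border and basolateral carriers, all of them members, held 20 of the 41 falls and 1 of the 24 rises. Its median log2 fold change was -1.91, against -0.13 for the other 180 members, of which 23 rose and 21 fell. Of the 43, 41 were lower in every same-numbered pair and 36 were called lower with the replicate block. The exceptions in direction were Slc29a1 and Slc28a2, both nucleoside carriers, with log2 fold changes of 2.39 (called) and 0.60 (not called). In CD24negTomato+ cells none of the 43 was called in either direction, also with the block. The log2 fold changes ran from -0.38 (Slc51b) to 1.09 (Slc10a2), with a median of 0.14 and 36 of 43 within 0.5 of 0. With equal library totals that median was -0.06, so its sign depends on the scaling, and without Tomatoneg replicate 1 the carrier Slc10a2 was called higher.

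Summed over the 43 genes, the level in the order of replicates 1, 2 and 3 was 205612, 103759 and 139453 normalized counts in CD24negTomato+, and 212337, 106056 and 122887 in Tomatoneg. In the other table it was 64682, 35966 and 38984 in CD24+Tomato+ and 229435, 109072 and 129749 in Tomatoneg. The first pair of groups overlapped and the second did not. Replicate 1 was the highest library for 36 of the 43 genes within CD24negTomato+, for 36 within CD24+Tomato+ and for 30 within Tomatoneg (CD24negTomato+ table), so libraries of the same number shared a level. The enterocyte markers moved with the list, with 12 of 12 lower with the block in CD24+Tomato+ cells and overlapping sums in CD24negTomato+ cells, as given above. Their part in the result was not tested. Without CD24+Tomato+ replicate 2, 5 carriers of the list were called lower, and without replicate 3, 6, with medians of -1.66 and -1.80.

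**Figure D2:**
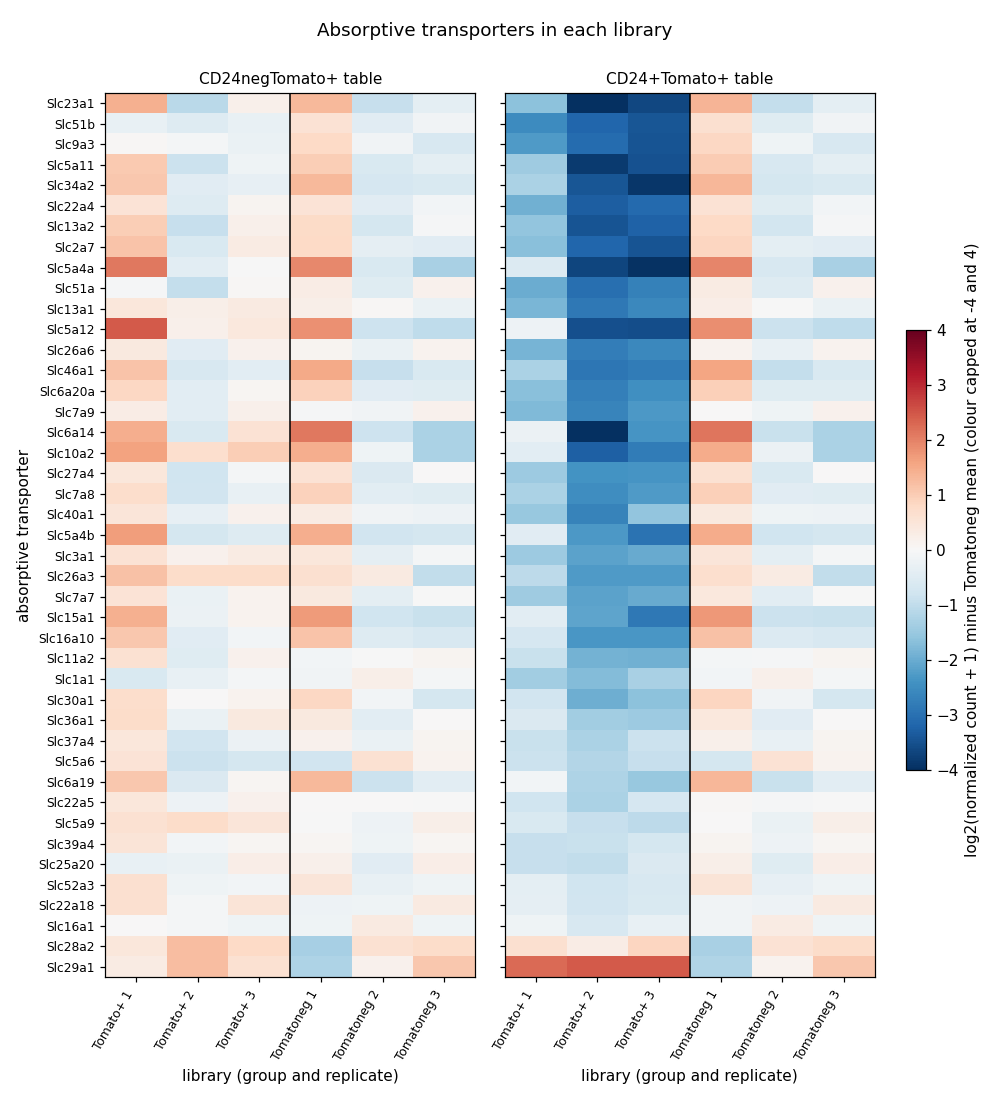
Each row is 1 of the 43 absorptive carriers and each column 1 library, in the CD24negTomato+ table (left) and the CD24+Tomato+ table (right); colour is log2(normalized count + 1) minus the mean of the 3 Tomatoneg libraries, capped at -4 and 4. The CD24negTomato+ columns are pale like the Tomatoneg ones, and the CD24+Tomato+ columns are blue in all rows but the last 2, Slc28a2 and Slc29a1, with replicate 1 the palest.

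Bile acid and lipid carriers gave some of the largest falls. Slc51b, the small subunit of the basolateral bile acid exporter (chromosome 9 of GRCm38, 65412714 to 65422955, minus strand), had 840, 535 and 448 normalized counts in CD24+Tomato+ replicates 1, 2 and 3 and 7382, 3408 and 4357 in Tomatoneg. Its partner Slc51a, the subunit with the membrane-spanning segments (chromosome 16, 32474504 to 32487879, minus strand), had 2551, 1257 and 1551 against 12818, 7088 and 11524. Neither gene's groups overlapped, and the log2 fold changes were -3.03 ± 0.36 (SE, adjusted P = 0.00525) and -2.57 ± 0.34 (adjusted P = 0.00676). In CD24negTomato+ cells the same subunits had log2 fold changes of -0.38 and -0.32 (adjusted P = 0.536 and 0.666). Slc27a4, a fatty acid transport protein of enterocytes, was the highest carrier of lipids, with 6888, 3583 and 3738 normalized counts in CD24+Tomato+ against 28930, 12459 and 19016 in Tomatoneg (log2 fold change -2.07, adjusted P = 0.0173). In CD24negTomato+ cells it stood at 24966, 10479 and 17211 against 26900, 12196 and 18153. Slc10a2, the apical bile acid carrier of the ileum, had 272, 37.1 and 51.4 in CD24+Tomato+ against 1027, 313 and 152, groups that overlapped, and passed only with the block (log2 fold change -2.17, adjusted P = 0.186, with the block 0.0206). Slc27a1, a fatty acid transport protein best known from muscle and fat, was called higher (log2 fold change 1.24). In all, 1 of 10 carriers of lipids, bile acids and choline rose and 3 fell, and 2 and 5 with the block.

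The promoter windows of Slc51a, Slc51b and the heavy chain gene Slc3a1, which belong to pairs that fell together, are shown as examples of the windows searched for motifs. Each runs from 250 bases before the start site to 50 after it on the gene's own strand, 5′ to 3′, from RefSeq on GRCm38.p6, at chr16:32487830-32488129 (minus strand), chr9:65422724-65423023 (minus strand) and chr17:85028097-85028396 (plus strand). Capitals mark matches on either strand. The motifs searched were the core that FOXO factors bind, GTAAACA. An E-box of the type bound by neurogenin was spelled CAGATG. The letters for HNF4, a factor of enterocytes, were CAAAGTCC. The TATA box was searched as TATAAA. The Slc51b window holds none of the 4.
Slc51a: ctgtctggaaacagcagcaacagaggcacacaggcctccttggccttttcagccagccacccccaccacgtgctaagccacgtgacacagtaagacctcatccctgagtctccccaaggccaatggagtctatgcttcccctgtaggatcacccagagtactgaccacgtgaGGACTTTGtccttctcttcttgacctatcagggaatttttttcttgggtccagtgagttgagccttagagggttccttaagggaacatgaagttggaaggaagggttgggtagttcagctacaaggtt
Slc51b: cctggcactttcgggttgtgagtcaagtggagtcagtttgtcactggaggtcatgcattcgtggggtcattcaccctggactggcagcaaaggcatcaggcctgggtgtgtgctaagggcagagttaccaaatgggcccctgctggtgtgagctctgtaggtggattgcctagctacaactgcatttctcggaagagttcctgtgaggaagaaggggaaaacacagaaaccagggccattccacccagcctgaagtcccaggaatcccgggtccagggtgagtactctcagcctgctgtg
Slc3a1: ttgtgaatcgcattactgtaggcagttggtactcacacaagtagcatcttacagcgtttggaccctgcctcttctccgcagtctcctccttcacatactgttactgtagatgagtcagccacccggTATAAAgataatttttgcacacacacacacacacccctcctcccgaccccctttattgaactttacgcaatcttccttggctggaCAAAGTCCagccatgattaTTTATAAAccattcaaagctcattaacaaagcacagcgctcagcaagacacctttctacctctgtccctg
In Slc51a and Slc3a1 the HNF4 letters begin 78 and 39 bases before the start site, in Slc51a on the opposite strand. In Slc3a1 the TATA letters begin 124, 20 and 18 bases before it, and the last of these matches, on opposite strands, overlap. A window was found for 172 of the 223 members. The FOXO core was in 1 of 172 (0.581%, Slc5a6), against 4.05% of the windows of 27025 genes. The E-box was in 23 (13.4%) against 19.2%. The HNF4 letters were in 5 (2.91%) against 1.63% (Slc29a1, Slc35a3, Slc35d1, Slc3a1 and Slc51a), and the TATA letters in 16 (9.30%) against 15.7%. Of the members that fell in CD24+Tomato+ cells 32 had a window, with 0, 4, 2 and 3 matches to these motifs in the same order (0%, 12.5%, 6.25% and 9.38%). Of those that rose 19 had one, with 0, 5, 1 and 4 (0%, 26.3%, 5.26% and 21.1%). A match describes letters in the window, not a binding site.

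Amino acid and peptide carriers moved in both directions in CD24+Tomato+ cells, with 5 of 34 higher and 8 lower, and with 7 and 13 with the block. The pair that takes up cystine and dibasic amino acids at the brush border fell. Its heavy chain Slc3a1 (chromosome 17, 85028376 to 85064236, plus strand) had 1529, 938 and 1026 normalized counts in CD24+Tomato+ and 5824, 3173 and 3946 in Tomatoneg. Its light chain Slc7a9 (chromosome 7, 35448796 to 35466036, plus strand) had 2072, 1124 and 1450 against 7098, 6230 and 8043. The groups did not overlap for either chain, with log2 fold changes of -1.88 ± 0.30 (SE, adjusted P = 0.0107) and -2.24 ± 0.27 (adjusted P = 0.00525). In CD24negTomato+ cells Slc3a1 had 5923, 4450 and 4990 against 5407, 3101 and 3761 and Slc7a9 8220, 5069 and 7836 against 6584, 6084 and 7659, and neither was called (log2 fold changes 0.35 and 0.03).

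The basolateral exchangers had a like pattern. Slc3a2, the heavy chain of the other Slc7 exchangers, had 4699, 3736 and 4724 normalized counts in CD24+Tomato+ against 13996, 6982 and 9268 in Tomatoneg (log2 fold change -1.15, adjusted P = 0.0419). Its light chain for dibasic amino acids, Slc7a7, fell by 1.85 on the log2 scale (adjusted P = 0.0108). The light chain for neutral ones, Slc7a8, also fell, with 3886, 1652 and 1934 against 17961, 6683 and 6592 (adjusted P = 0.0361). The light chain Slc7a5, an exchanger of large neutral amino acids common in dividing cells, stood the other way, with 1003, 1039 and 1532 against 94.9, 625 and 612. It was higher in every pair but passed only with the block (log2 fold change 1.81, adjusted P = 0.145, with the block 0.0426), and its lowest library was Tomatoneg replicate 1. Slc7a6, a related light chain, was not called (0.64, adjusted P = 0.369). In CD24negTomato+ cells none of these 5 was called, with log2 fold changes of -0.31 to 0.14. Of the 12 heavy chains and partners that were members, 0 rose and 7 fell in CD24+Tomato+ cells. The lactate carriers Slc16a1 and Slc16a3, of the same list, had log2 fold changes of -0.37 and -0.85 there and were not called.

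**Figure D3:**
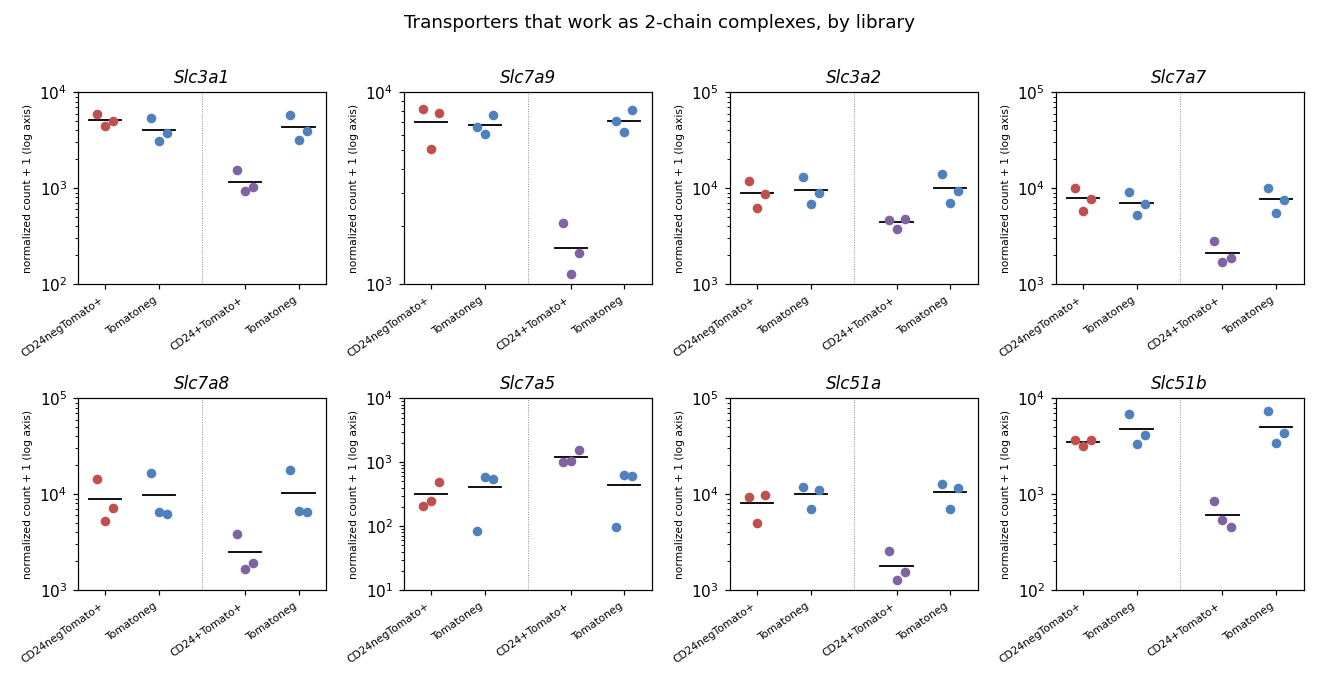
Normalized count + 1 (log axis) in each library for 8 carriers that work as pairs; points are libraries, black bars the mean of 3, red CD24negTomato+, violet CD24+Tomato+ and blue the Tomatoneg libraries of the same table. CD24+Tomato+ libraries lie below all Tomatoneg ones for every gene shown but Slc7a5, where they lie above, and CD24negTomato+ libraries overlap Tomatoneg for all 8.

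Among the apical carriers, Slc6a19, which takes up neutral amino acids with sodium, had 6251, 2888 and 2331 normalized counts in CD24+Tomato+ against 16931, 3594 and 5019 in Tomatoneg, so the groups overlapped. It was lower in each pair and was called only with the block (log2 fold change -0.95, adjusted P = 0.367, with the block 0.0281). Slc15a1, the peptide carrier, had 3210, 1005 and 589 against 14251, 2389 and 2338 and likewise passed only with the block (-1.79, adjusted P = 0.215, with the block 0.00198). Slc43a2, an exporter of branched and aromatic amino acids and the most abundant carrier of this class, had 8016, 3241 and 3040 against 28031, 10315 and 13362 (-1.87, adjusted P = 0.0483, without Tomatoneg replicate 1 0.0668). Slc6a20a and Slc1a1, carriers of proline and of glutamate, also fell (-2.28 and -1.48). Reads that fit both Slc6a20a and its close copy Slc6a20b are divided by kallisto's estimate. The members that rose were Slc36a4, Slc1a4, Slc43a1, Slc7a4 and Slc1a5, with log2 fold changes of 2.67, 2.61, 2.47, 2.40 and 1.20. Slc1a5, a glutamine carrier, was the most abundant of them, with 3910, 4213 and 3674 against 1267, 2069 and 1895, and in CD24negTomato+ cells it had 1333, 1917 and 1695 against 1150, 1976 and 1765.

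Of 25 carriers of inorganic ions, 2 rose and 5 fell in CD24+Tomato+ cells, and 2 and 11 with the block. The shares of all genes were 8.02% higher and 4.89% lower, and 10.8% and 9.95% with the block. Slc9a3, the sodium/proton exchanger of the brush border (chromosome 13, 74121457 to 74169442, plus strand), had 1781, 1014 and 778 normalized counts against 15062, 7511 and 5503 in Tomatoneg, with no overlap and a log2 fold change of -2.93 ± 0.44 (SE, adjusted P = 0.00957). In CD24negTomato+ cells it had 8328, 7601 and 6746 against 13933, 7314 and 5226 (-0.11, adjusted P = 0.905). The scaffold Slc9a3r1, which anchors Slc9a3 in the brush border, fell with it in CD24+Tomato+ cells, from 38058, 13100 and 20033 in Tomatoneg to 9023, 5631 and 5886 (-1.69, adjusted P = 0.0386). The related scaffold Slc9a3r2 rose, with 163, 238 and 272 against 52.9, 31.3 and 20.6 (2.72, adjusted P = 0.0227). The anion exchangers Slc26a8 and Slc26a6 (-2.80 and -2.39), the sulfate carrier Slc13a1 (-2.43) and the sodium/proton exchanger Slc9a2 (-1.47) were also called lower. Slc26a3, the chloride/bicarbonate exchanger of congenital chloride diarrhoea, had 882, 378 and 385 against 2925, 2292 and 930, without overlap, and was called only with the block (-1.86, adjusted P = 0.0541, with the block 0.00548). Slc4a2 and Slc12a7, a basolateral anion exchanger and a potassium/chloride carrier, had log2 fold changes of -0.42 and -0.66. Slc12a7 was called with the block (adjusted P = 0.0175) and Slc4a2 was not (0.0748). Of the 12 bicarbonate, chloride and proton exchangers that were members, 0 rose and 3 fell, and 0 and 6 with the block.

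Carboxylate, sugar and vitamin carriers had the falls of the absorptive list and a few rises. Slc13a2, the apical carrier of succinate and citrate, had 1013, 274 and 318 normalized counts in CD24+Tomato+ cells against 5268, 1805 and 2914 in Tomatoneg (log2 fold change -2.76, adjusted P = 0.0237). Slc5a8 and Slc16a5, both of the monocarboxylate group, fell by 2.47 and 2.21 on the log2 scale and Slc16a11 rose by 2.07, so that 1 of 9 carboxylate carriers rose and 3 fell. Of 10 sugar and polyol carriers, 2 rose and 3 fell, and 2 and 5 with the block. The shares of all genes were 8.02% higher and 4.89% lower, and 10.8% and 9.95% with the block. Slc5a11, a sodium/inositol carrier, had 912, 174 and 220 against 5015, 1578 and 1887 (-2.91, adjusted P = 0.0353, without Tomatoneg replicate 1 0.0537). Slc2a7, a hexose carrier of the small intestine, had 120, 41.8 and 33.9 against 687, 292 and 277 (-2.76, adjusted P = 0.0323), and the urate carrier Slc2a9 fell by 1.55. The pair Slc5a4a and Slc5a4b, close copies of each other whose shared reads cannot be assigned with certainty, passed only with the block. Slc50a1, a sugar exporter of the Golgi and plasma membrane and the most abundant of the class in this table, rose in CD24+Tomato+ cells, with 2152, 2824 and 3417 against 449, 862 and 1127 (1.86, adjusted P = 0.0206). Among 9 vitamin carriers the riboflavin carrier Slc52a2 alone was called without the block (-1.34), and 5 were lower and 1 higher with it. Slc52a3, the apical riboflavin carrier and the most abundant of the class, had 1858, 1423 and 1575 against 3478, 1953 and 2160 (-0.61, adjusted P = 0.193, with the block 0.0464). Slc23a1, a vitamin C carrier with the lowest fold change of the absorptive list, had 80.3, 7 and 19.4 against 639, 129 and 191, without overlap, and passed only with the block (-3.41, adjusted P = 0.0658, with the block 0.00947).

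Of 7 nucleoside and nucleobase carriers, 2 rose and 2 fell in CD24+Tomato+ cells, where 8.02% of all genes were called higher and 4.89% lower. Slc28a1, which is driven by sodium, had 42.6, 15.4 and 12.6 normalized counts in CD24+Tomato+ cells against 296, 123 and 147 in Tomatoneg (log2 fold change -3.04 ± 0.70 (SE), adjusted P = 0.031), and Slc28a3, of the same family, fell by 1.75. Slc29a1, an equilibrative carrier, had 2019, 2302 and 2289 against 181, 458 and 883 (2.39, adjusted P = 0.0272). Slc29a4, which also carries monoamines, had 422, 300 and 423 against 42, 55.3 and 62.2 (2.82, adjusted P = 0.0094). The third sodium-driven carrier, Slc28a2, was not called, with 602, 483 and 701 against 157, 577 and 648. In CD24negTomato+ cells none of these 5 was called, and Slc29a1 had 475, 882 and 574 against 159, 423 and 796. Organic cation and drug carriers had 1 of 8 higher and 2 lower in CD24+Tomato+ cells, and 1 and 4 with the block. Slc22a4, the ergothioneine carrier, had 92.4, 35.1 and 39.5 against 528, 253 and 328 (-2.78, adjusted P = 0.0207), and Slc22a15, a further member of the family, rose by 1.38. Slc22a18, the most abundant of the class, was not called in either population (-0.57 in CD24+Tomato+ and 0.36 in CD24negTomato+ cells).

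Of 28 metal and haem carriers, 1 rose and 5 fell in CD24+Tomato+ cells, and 4 and 10 with the block. The shares of all genes were 8.02% higher and 4.89% lower, and 10.8% and 9.95% with the block. The transcripts of an importer and an exporter of iron both fell. Slc11a2, the apical iron carrier, had 1732, 874 and 847 normalized counts against 3092, 3156 and 3506. Slc40a1 (ferroportin), the basolateral exporter, had 884, 389 and 837 against 3262, 2228 and 2167. The log2 fold changes of Slc11a2 and Slc40a1 were -1.58 (limma adjusted P = 0.0192) and -1.92 (limma adjusted P = 0.0177). Among 20 zinc carriers 1 rose and 3 fell, and 2 and 7 with the block. Slc39a4, the apical zinc importer that is lost in acrodermatitis enteropathica, had 3098, 3174 and 3600 against 6326, 5102 and 6206, a small fall with narrow spread (-0.83, adjusted P = 0.0325), and Slc39a5, of the basolateral side, had 2388, 1874 and 2648 against 6898, 4590 and 8502 (-1.50, adjusted P = 0.0169). Slc30a2, a carrier of zinc into vesicles, fell by 1.12 (adjusted P = 0.0399, without Tomatoneg replicate 1 0.0565). Slc39a8, a zinc and manganese importer, rose, with 1322, 1599 and 1139 against 256, 655 and 398 (1.72, adjusted P = 0.0253). Slc39a7, which releases zinc from the ER, had 6314, 7640 and 8306 against 4730, 4235 and 5542, with no overlap, and passed only with the block (0.62, adjusted P = 0.105, with the block 0.0305). The plasma membrane importer Slc39a1, with 3114, 4042 and 5039 against 3114, 3507 and 4783, was not called.

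Of 36 mitochondrial carriers, 2 rose and 3 fell in CD24+Tomato+ cells, where 8.02% of all genes were called higher and 4.89% lower. The 36 had a median log2 fold change of -0.23. With the block 2 were higher and 13 lower, against 10.8% and 9.95% of all genes. Slc25a5 had 20162, 19481 and 24185 normalized counts against 41057, 34507 and 41492 in Tomatoneg. The groups did not overlap, and the gene passed with the block alone (-0.88, adjusted P = 0.0729, with the block 0.0129). Its paralog Slc25a4, the ADP/ATP carrier of muscle and heart, rose, with 1002, 896 and 697 against 411, 220 and 204 (1.69, adjusted P = 0.0239), although reads that fit both copies or their pseudogenes are divided by estimate. The ATP-Mg/phosphate carrier Slc25a24 passed only with the block (-1.15, adjusted P = 0.166, with the block 0.0155). The phosphate carrier Slc25a3 had 9385, 9962 and 12903 against 16771, 21304 and 25488 (-0.97, adjusted P = 0.0528, with the block 0.00596). Slc25a48, Slc25a45 and Slc25a15, the last an ornithine carrier, fell by 2.65, 2.62 and 1.36. Among the 7 mitochondrial nucleotide and phosphate carriers, 1 rose and 0 fell. With the block, 3 of the 7 were lower.

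The glycosylation list of 12 carriers holds nucleotide sugar carriers of the Golgi and others, such as Slc35b1 of the ER. Of the 12, 1 rose and 0 fell in CD24+Tomato+ cells by limma, and 3 and 2 with the block. Of all genes, 8.02% were called higher and 4.89% lower without the block, and 10.8% and 9.95% with it. On this list, 0 were called in CD24negTomato+ cells, where 11 of 12 had a log2 fold change above 0 (median 0.33, and 0.13 with equal library totals). In the same comparison 144 of all 223 members were above 0, and the median over all genes was 0.08. Slc35a1, which carries CMP-sialic acid, had 1300, 1235 and 962 normalized counts in CD24+Tomato+ cells against 173, 520 and 266 (called higher, adjusted P = 0.0237) and 474, 837 and 486 against 159, 505 and 252 in CD24negTomato+ cells. Slc35c1, the GDP-fucose carrier and the most abundant of the class, had 6845, 7577 and 8791 in CD24+Tomato+ against 4344, 5615 and 6676 (0.49, adjusted P = 0.219, with the block 0.0494). Slc35b1, an ATP carrier of the ER, had 3226, 3656 and 3890 against 3371, 4014 and 4222 and was not called (-0.11). Slc35c2, a relative of the GDP-fucose carrier, passed only with the block (-0.99, adjusted P = 0.075, with the block 0.0136). In the wider class of 21 carriers of nucleotide sugars and other ER or Golgi substrates, 1 rose and 1 fell, and 3 and 5 with the block. The fall without the block was that of Slc37a4, the glucose 6-phosphate carrier of the ER, which is not on the list (-1.01, limma adjusted P = 0.0294). The goblet markers, whose glycoproteins use these sugars, were higher in both Tomato+ populations, and their part in these values was not tested.

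Among members called without the block, the largest rises in CD24+Tomato+ cells were Slc8a1, Slc26a4, Slc25a35, Slc2a10, Slc29a4, Slc35g2, Slc9a3r2 and Slc36a4. Of these, Slc8a1, Slc26a4, Slc29a4, Slc35g2 and Slc9a3r2 were under 100 in every Tomatoneg library. They met the level limit only through Tomato+ libraries, where they are high, so the choice of members favours such rises. Slc8a1, a sodium/calcium exchanger of excitable cells (chromosome 17, 81373105 to 81738377, minus strand), had 432, 263 and 127 normalized counts in CD24+Tomato+ replicates 1, 2 and 3 and 0, 5.56 and 0 in Tomatoneg. In the other table it had 206, 305 and 59.6 in CD24negTomato+ against 0, 5.43 and 0. Every Tomato+ library lay above every Tomatoneg one, with log2 fold changes of 7.03 ± 1.02 (SE, adjusted P = 0.00871) and 6.40 ± 1.11 (adjusted P = 0.0445). These sizes depend on the pseudocount, because 2 of the 3 Tomatoneg libraries were at 0: they were 4.46 and 3.86 with a pseudocount of 10, and 9.31 and 8.67 with 0.1, where the CD24negTomato+ call was lost. Slc26a4, the iodide and bicarbonate exchanger pendrin (chromosome 12, 31519827 to 31559969, minus strand), had 543, 279 and 188 in CD24+Tomato+ against 0, 32.1 and 10.8 (5.39 ± 1.27, adjusted P = 0.034). In CD24negTomato+ cells it had 73.3, 202 and 98.2 against 0, 32 and 10.5, again without overlap, and was not called (3.98, adjusted P = 0.176). Slc38a11, of the amino acid class, had 535, 234 and 86.6 in CD24+Tomato+ against 61.9, 6.77 and 0, without overlap, and passed only with the block (4.82, adjusted P = 0.0783, with the block 0.0116).

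Slc25a35, an orphan of the mitochondrial family (chromosome 11, 68968131 to 68974365, plus strand), was called in both populations. It had 1506, 2410 and 1827 normalized counts in CD24negTomato+ against 139, 349 and 464 in Tomatoneg, and 2538, 2305 and 2612 in CD24+Tomato+ against 151, 359 and 491. The groups did not overlap in either table, with log2 fold changes of 2.73 ± 0.46 (SE, adjusted P = 0.04) and 3.05 ± 0.42 (adjusted P = 0.00758). Slc12a8, a member of the cation/chloride family reported to carry a NAD precursor (chromosome 16, 33517328 to 33664135, plus strand), was also called in both, as was Slc8a1, and was the most abundant of the 3. It had 7715, 8934 and 7296 in CD24negTomato+ against 1250, 2686 and 2566, and 10097, 11257 and 14867 in CD24+Tomato+ against 1340, 2735 and 2679, with log2 fold changes of 1.96 ± 0.32 (adjusted P = 0.0392) and 2.48 ± 0.33 (adjusted P = 0.00674). Both CD24negTomato+ calls, like that of Slc8a1, were lost when any single CD24negTomato+ library was left out, with equal library totals and with a pseudocount of 0.1, and the sign was kept. Without Tomatoneg replicate 2 those of Slc25a35 and Slc12a8 were lost as well, and without replicate 3 those of Slc8a1 and Slc12a8.

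Several other members were called in CD24+Tomato+ cells and, in CD24negTomato+ cells, only with the replicate block. Slc2a10, a glucose carrier of inner membranes (chromosome 2, 165503787 to 165519917, plus strand), had 839, 684 and 655 normalized counts in CD24+Tomato+ against 44.5, 170 and 122, and 748, 645 and 404 in CD24negTomato+ against 42.5, 170 and 119. Its log2 fold changes were 2.88 (adjusted P = 0.0161) and 2.59 (adjusted P = 0.0717, with the block 0.0434). Slc35g2, a member of the Slc35 family without a known substrate, had 331, 298 and 343 against 49.2, 74.2 and 28.4, and 197, 282 and 170 against 45.6, 72.5 and 27 (2.76, adjusted P = 0.0157, and 2.21, adjusted P = 0.0886, with the block 0.0399). Slc17a9, which loads ATP into secretory vesicles, had 627, 858 and 798 against 77.4, 193 and 140, and 353, 553 and 413 against 73.3, 193 and 136 (2.55, adjusted P = 0.011, and 1.79, adjusted P = 0.0986, with the block 0.0333). Slc10a7, a relative of the bile acid carriers linked to calcium handling and bone growth, had 605, 638 and 797 against 135, 305 and 177, and 522, 1278 and 584 against 109, 259 and 146 (1.80, adjusted P = 0.0243, and 2.18, adjusted P = 0.0754, with the block 0.0123). None of these groups overlapped. In CD24+Tomato+ cells the vesicular polyamine carrier Slc18b1 fell by 1.22 (adjusted P = 0.0332), the creatine carrier Slc6a8 by 1.84, and Slc35f2 and Slc35g1 by 1.66 and 1.16, while Slc66a2 rose by 1.49.

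**Figure D4:**
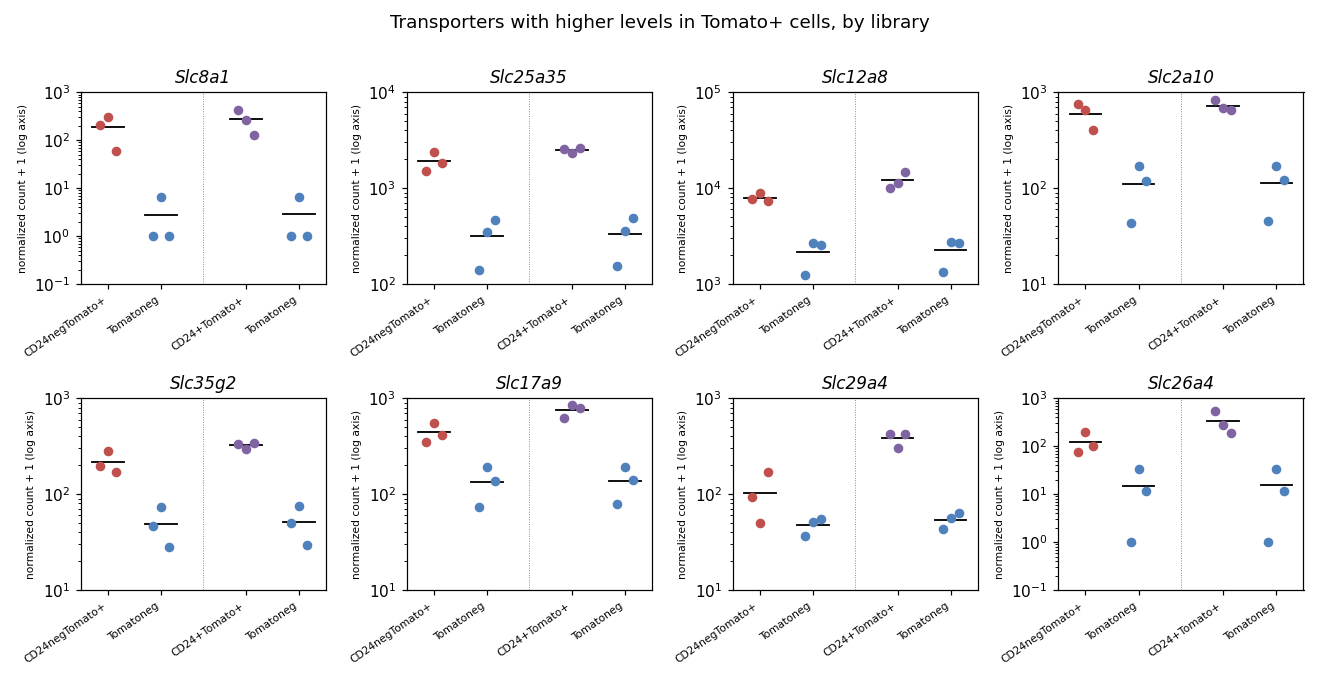
Normalized count + 1 (log axis) in each library for 8 carriers with higher levels in Tomato+ cells; points are libraries, black bars the mean of 3, red CD24negTomato+, violet CD24+Tomato+ and blue the Tomatoneg libraries of the same table. CD24+Tomato+ libraries lie above all Tomatoneg ones for all 8 genes, CD24negTomato+ libraries for all but Slc29a4, and Tomatoneg replicate 1 is often the lowest point.

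The other members that passed in CD24negTomato+ cells only with the block were Slc26a2, Slc22a15, Slc39a8, Slc41a2, Slc22a23, Slc25a36, Slc38a2 and Slc35a3, all higher, and Slc23a4, lower. Slc26a2, a sulfate carrier needed for sulfated glycans, had 7996, 6697 and 3103 normalized counts in CD24negTomato+ against 4846, 1999 and 818 in Tomatoneg. The groups overlapped, and each CD24negTomato+ library was above the Tomatoneg library of its own number (1.46, adjusted P = 0.3, with the block 0.0309). In CD24+Tomato+ cells it had 4662, 2266 and 1393 against 5216, 2044 and 858 (0.23). Slc35a3, the UDP-N-acetylglucosamine carrier, had 3036, 3285 and 2409 against 1700, 2193 and 1338 (0.76, adjusted P = 0.198, with the block 0.039). Slc38a2, a sodium-driven carrier of small neutral amino acids, had 2058, 2159 and 2031 against 1056, 1292 and 731 (1.06, adjusted P = 0.0984, with the block 0.036). Slc23a4, the nucleobase carrier of rodents, had 130, 198 and 262 against 334, 456 and 835 (-1.41, adjusted P = 0.169, with the block 0.0381). Slc22a15, Slc41a2, Slc22a23, Slc25a36, Slc38a2 and Slc39a8 had log2 fold changes of 1.40, 1.20, 1.12, 1.09, 1.06 and 1.34. The highest member of each class not yet given for this population, such as Slc43a2, Slc27a4, Slc25a5, Slc35c1 and Slc13a2, had log2 fold changes of 0.08, -0.13, -0.06, 0.34 and 0.09, none of them called.

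Compared per kilobase of the longest annotated transcript, which allows levels of different genes to be set side by side, Slc25a5 led in both groups of the CD24+Tomato+ table, with 17158 normalized counts per kilobase in CD24+Tomato+ cells. In these cells Slc12a8 came next with 3814, followed by Slc9a3r1 (3557), Slc25a39 (3258) and Slc25a1 (3065), and no carrier of the absorptive list was among the first 10. In the Tomatoneg libraries of the same table, Slc25a5 (31467) was followed by Slc9a3r1 (12328), Slc51b (7122), Slc25a3 (5246), Slc27a4 (4967) and Slc51a (4002). Slc12a8 stood at 711 per kilobase there. In CD24negTomato+ cells, in their own table, the first 10 included Slc51b (4948), Slc27a4 (4330), Slc7a7 (3434), Slc7a9 (3376) and Slc51a (3087). The order of neighbours in these lists was not tested.

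**Figure D5:**
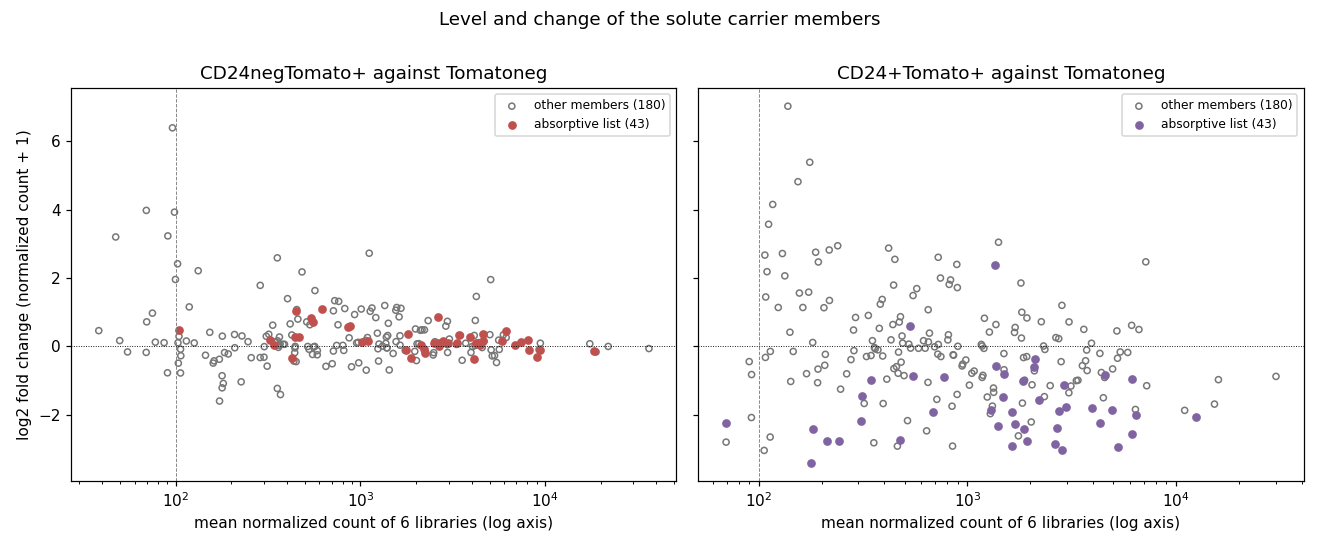
Log2 fold change (vertical axis) against the mean normalized count of the 6 libraries of the table (horizontal log axis) for the 223 members, with the 43 absorptive carriers filled and the other 180 open, for CD24negTomato+ (left) and CD24+Tomato+ (right); the dashed line is the limit of 100. On the left the filled points lie along 0 at all levels, and on the right 41 of 43 lie below it, at low and high means alike.

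Proteins that work with the carriers, none of them members, were read from the same fits. Cltrn, which carries apical amino acid carriers to the membrane in kidney, had 184, 105 and 29.9 normalized counts against 0, 1.11 and 0 in CD24+Tomato+ cells and 187, 230 and 182 against 0, 1.08 and 0 in CD24negTomato+ cells (adjusted P = 0.0123 and 0.0109). Pdzk1, a scaffold of apical carriers, had 1138, 334 and 192 in CD24+Tomato+ against 15121, 1948 and 1895 (-3.19, adjusted P = 0.0668, with the block 0.000449). Fxyd3, a small regulator of ion transport, rose in CD24+Tomato+ cells, with 5466, 8061 and 9339 against 210, 1176 and 1092 (3.52, adjusted P = 0.0161), and in CD24negTomato+ cells it passed only with the block (2.32, adjusted P = 0.129, with the block 0.0309). In CD24negTomato+ cells Pdzk1 was not called (-0.18). Bsg, the partner of Slc16a1 and Slc16a3, was not called in either population (-0.42 and -0.26). Of other transport families, 3 of 31 ABC transporters tested were higher and 4 lower in CD24+Tomato+ cells and 0 were called in CD24negTomato+ cells, while of 4 Slco carriers tested 0 were higher and 1 lower, and 0 were called. Among Slc symbols that are no members, 8 of 51 tested were higher and 4 lower in CD24+Tomato+ cells, and 0 of 45 were called in CD24negTomato+ cells, all by limma. The shares of all genes were 8.02% higher and 4.89% lower in CD24+Tomato+ cells, and 0.999% and 0.32% in CD24negTomato+ cells.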

How the data were processed

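The authors sequenced poly-A RNA of 3 sorted gut epithelial populations, in 3 libraries each, and groups follow the labels. The deposited values are a signal: the authors' kallisto estimates per gene (0.44.0, with bcl2fastq 2.19, per the submitters' processing notes, build GRCm38), scaled with DESeq2 in 2 separate tables, each of 6 libraries. A Tomatoneg library's ratio between tables varied by gene (medians 1.078, 1.024 and 1.050), and tests never cross tables. Whole reads could not be recovered, since 49.0% to 67.0% of low values lay at whole steps of a common value (tolerance 0.05), so no count test was run, no interval or floor that needs the depth is given, and the number of libraries limits the precision. A value of 0 means only that a gene is listed at 0.

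Members and gene lists were chosen with earlier results of these data known. Substrate classes and lists were written from textbook knowledge, and 2 classes were corrected after values had been seen. Genes with a mean of at least 10 were fitted with limma 3.58.1 in R 4.3.3 (trend) on log2(normalized count + 1), with two-sided P values adjusted by Benjamini-Hochberg over all genes of a table, a threshold of 0.05, and no block. All 223 members passed this filter in both tables. A fold change on this scale understates that of low genes. The script was tested on simulated data. Positions and lengths come from the GENCODE annotation of GRCm38 (220 members matched), promoter windows from RefSeq. Python 3.11.15, numpy 2.4.6, pandas 2.3.3 and matplotlib 3.10.9 were used.

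The genes named are, in each comparison, up to 8 members with the largest rise and up to 8 with the largest fall among those past the threshold and moving in 1 direction in every same-numbered pair (filled from the fit with the block), the highest member of each class, up to 4 highest of each list and all heavy chains and partners. Other members past the threshold were named after their values were seen. Some genes are not reported here.

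Pairs follow the labels' replicate numbers. Deviations from the group means correlated between same-numbered libraries across genes, with r of 0.302, 0.291 and 0.342 in the CD24negTomato+ table and 0.283, 0.180 and 0.375 in the CD24+Tomato+ table, all above 0.1, so the numbers were taken as pairs. The labels call the replicates biological. Neither labels nor paper say whether the libraries of a number came from the same mice or separate ones. P values measure the spread between these libraries. Alternatives were the replicate block, pseudocounts of 0.1 and 10, a mean of at least 50 or no filter, equal library totals, quantile normalization, a log2 fold change of at least 1, membership at 50 or 200, and each library left out in turn.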

Additional observations from a re-analysis of the deposited data

Results flagged for a closer look

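For 30 of 223 members, all 3 same-numbered pairs moved one way in CD24negTomato+ cells and the other way in CD24+Tomato+ cells. The 8 of them that were called without the block in a comparison are given, and 22 were not called without it. The share of all genes that moved this way is not given, so the 30 cannot be read as particular to carriers. The tables were scaled separately and share the Tomatoneg libraries, and the difference itself was not tested. Of the 8, members lower in CD24+Tomato+ and higher in CD24negTomato+ cells were Slc28a1 (log2 fold changes -3.04 and 0.35), Slc25a45 (-2.62 and 0.22), Slc13a1 (-2.43 and 0.35), Slc3a1 (-1.88 and 0.35), Slc7a7 (-1.85 and 0.14), Slc6a8 (-1.84 and 0.09) and Slc39a4 (-0.83 and 0.17). Slc27a1, the fatty acid transport protein, was the one higher in CD24+Tomato+ and lower in CD24negTomato+ cells (1.24 and -0.86). It had 538, 598 and 470 normalized counts in CD24+Tomato+ against 217, 184 and 286 in Tomatoneg, and 140, 135 and 103 in CD24negTomato+ against 213, 190 and 288. All 8 were called in CD24+Tomato+ cells, and none was called in CD24negTomato+ cells, where the limma adjusted P was 0.300 to 0.916.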

How the results depend on the processing

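In CD24negTomato+ cells, the 3 members called higher became 0 with equal library totals, 0 with a pseudocount of 0.1, 5 with quantile normalization, 15 with the replicate block and 0 to 11 without single libraries (11 without Tomatoneg replicate 1), and the 0 called lower became 1 with the replicate block and 0 to 0 without single libraries. In CD24+Tomato+ cells, the 24 called higher ranged from 1 to 31 and the 41 called lower from 5 to 41 without single libraries, and 85 were lower with the replicate block. The lowest counts came without CD24+Tomato+ replicates 2 and 3. Leaving out a library leaves 2 in a group and fewer degrees of freedom. Under the other alternatives these 4 counts stayed within 1.5 times, no result reversed, and the block changed no call among named genes other than those given beside their values and that of Slc35d1 in CD24+Tomato+ cells (-1.05, limma adjusted P = 0.0641, with the block 0.027). Scaling moved the median of all genes by -0.20 (equal totals) and -0.13 (quantile) in the CD24negTomato+ table and by 0.01 and -0.18 in the other. Of 49 named members not called in CD24negTomato+ cells, 23 changed sign under at least 1 alternative, as did 4 of 63 in CD24+Tomato+ cells. The reasons for these changes were not tested.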
